A study of Homo sapiens with 2 samples.

Results

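The genes described here encode the enzymes that modify RNA in ways other than m6A: methyltransferases that make m5C, m1A and m7G, pseudouridine synthases, adenosine deaminases that edit A to inosine, and enzymes that acetylate, thiolate, reduce or otherwise alter bases of tRNA and rRNA. They were 49 symbols given as a list, all 49 of which had a row among the 30856 gene rows of the deposited table. Poly(A) RNA was measured in THP1 cells, a human monocytic leukaemia line, with 1 library of Ara-C resistant cells and 1 library of untreated parental cells. The resistant cells had been selected by raising Ara-C (cytarabine, a nucleoside analogue) stepwise between 5 nM and 10 µM, until they doubled at the speed of untreated cells; whether they were 1 clone or several, and whether drug was present at harvest, was not given in the sources used here. With 1 library per group there was no test between conditions, so every difference compares 2 libraries and has no replicate check.

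Modified bases are placed after transcription. In tRNA they sit in the anticodon loop, where they tune decoding, and in the body of the molecule, where they hold its fold; in rRNA they are made in the nucleolus while ribosomes assemble. Pseudouridine and ribose methylation of rRNA are directed by small nucleolar RNAs that guide a common catalytic subunit, DKC1 or FBL, whereas most tRNA enzymes recognise their substrate on their own or with a partner protein.

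The resistant library held 58285463 counts and the parental library 57434972. Of the 12 monocytic and myeloid markers, 10 reached 1 FPKM in at least 1 library, with a summed level of 420 FPKM in the resistant library and 541 FPKM in the parental library. Of the 10, on the FPKM + 1 scale, 2 were at least 25% higher in resistant cells and 3 were at least 20% lower. Over all expressed genes with a symbol those shares were 9.66% and 13.0%. LYZ, the lysozyme gene, stood at 95.8 FPKM in the resistant library and 225 FPKM in the parental library, and without it, a choice made after the values were seen, the other 9 summed to 324 FPKM in resistant cells and 316 FPKM in parental cells. Beside LYZ, the lower genes were CSF1R (7.74 FPKM in resistant, 12.2 FPKM in parental cells) and MPO (0.94 FPKM in resistant, 2.81 FPKM in parental cells). The higher genes were FCGR1A, an Fc receptor (41.2 FPKM in resistant, 29.6 FPKM in parental cells), and CD4 (28.3 FPKM in resistant, 22.0 FPKM in parental cells). The myeloid transcription factor genes SPI1 (62.3 FPKM in resistant, 64.4 FPKM in parental cells) and CEBPA (141 FPKM in resistant, 139 FPKM in parental cells) stayed within those steps. CD14, a monocyte surface marker, had 4 counts in resistant and 56 counts in parental cells. Of 12 genes listed as markers of other cell types, 6 had a row, and of these PECAM1 and NCAM1 reached 1 FPKM. Their sum was 29.7 FPKM in resistant cells and 33.6 FPKM in parental cells. Most of it came from PECAM1 (23.7 FPKM in resistant, 28.15 FPKM in parental cells). Whether these 2 genes mark another cell type in this line was not tested. CD3E, the T cell marker, had 0 counts in resistant and 3 in parental cells. The part of these marker levels in the results below was not tested.

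Most of the enzyme genes were at like levels in resistant and parental cells, and the 4 that passed a rule of size were higher in resistant cells. A gene was taken as expressed at 1 FPKM or more in at least 1 library, which 47 of the 49 did; FPKM is a level per transcript length and library size. The log2 ratio below is log2((FPKM resistant + 1)/(FPKM parental + 1)), and the pseudocount of 1 FPKM shrinks ratios of low genes. By a rule of size on the FPKM + 1 scale, 4 of the 47 were at least 25% higher in resistant cells, against a background of 9.66% of the 11388 expressed genes with a symbol. None was at least 20% lower, which is the same step downward, against a background of 13.0%, and none was 1.5-fold apart in either direction, against 7.70%. The 4 genes were ADARB1, ADAT2, ELP3 and TRMT61A. The median log2 ratio of the 47 was 0.03, and that of all expressed genes was -0.02. Of the 47, 27 (57.4%) were above 0, against 46.3% of all expressed genes. Their log2 ratios ran from -0.27 to 0.52 with an SD of 0.17, against an SD of 0.34 over all expressed genes. In a bulk sample, fewer cells of one kind and less RNA per cell cannot be told apart.

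**Figure D1:**
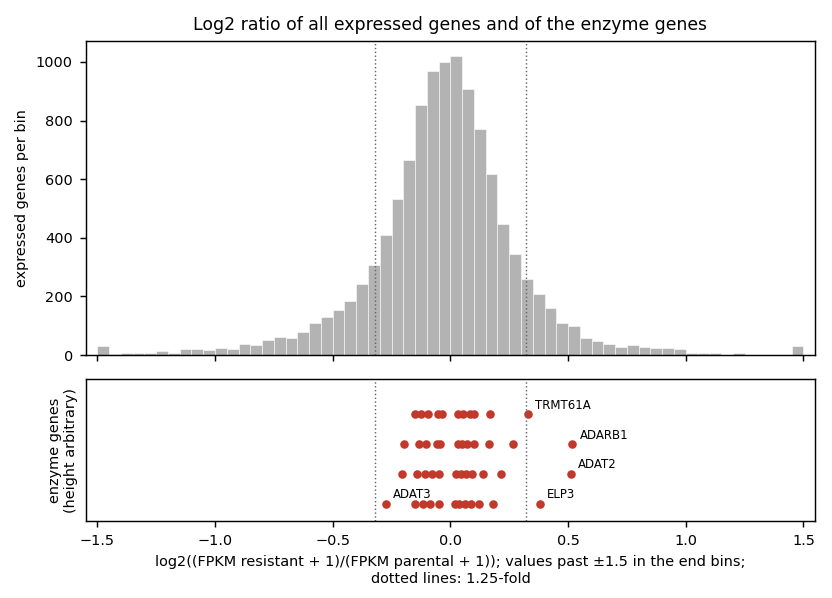
The upper panel counts all 11388 expressed genes by log2 ratio (x axis, resistant over parental on the FPKM + 1 scale), and the lower panel shows the 47 expressed enzyme genes as points whose height has no meaning. ADARB1, ADAT2, ELP3 and TRMT61A lie right of the right-hand dotted line, which marks 25% higher, and ADAT3 is the lowest at -0.27.

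The share of genes past the 25% or 20% step depended on level among all genes. Among genes whose higher library was between 1 and 5 FPKM, 1 of 9 enzyme genes was past it, against 28.2% of all genes of that level. Between 5 and 20 FPKM the counts were 3 of 31, against 19.8%. At 20 FPKM or more they were 0 of 7, against 16.8%. These shares describe the 2 libraries and were not tested.

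A second scale, the count fold, divides each gene's counts by its library total and uses no pseudocount. Its exact 95% interval covers counting error alone, treats read pairs as independent molecules, and says nothing of the spread between cultures. The interval left out 1 for 28 of the 47 enzyme genes, which is 59.6% against 72.8% of all expressed genes. Counted over all 47, 15 were higher in resistant cells with an interval that left out 1, against 33.7% of all expressed genes. Another 13 of the 47 were lower with such an interval, against 39.1%. On this scale 5 of the 47 were at least 25% higher, TRMT11 joining the 4 above, against a background of 13.3%, and 1, ADAT3, was at least 20% lower, against 17.2%.

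**Figure D2:**
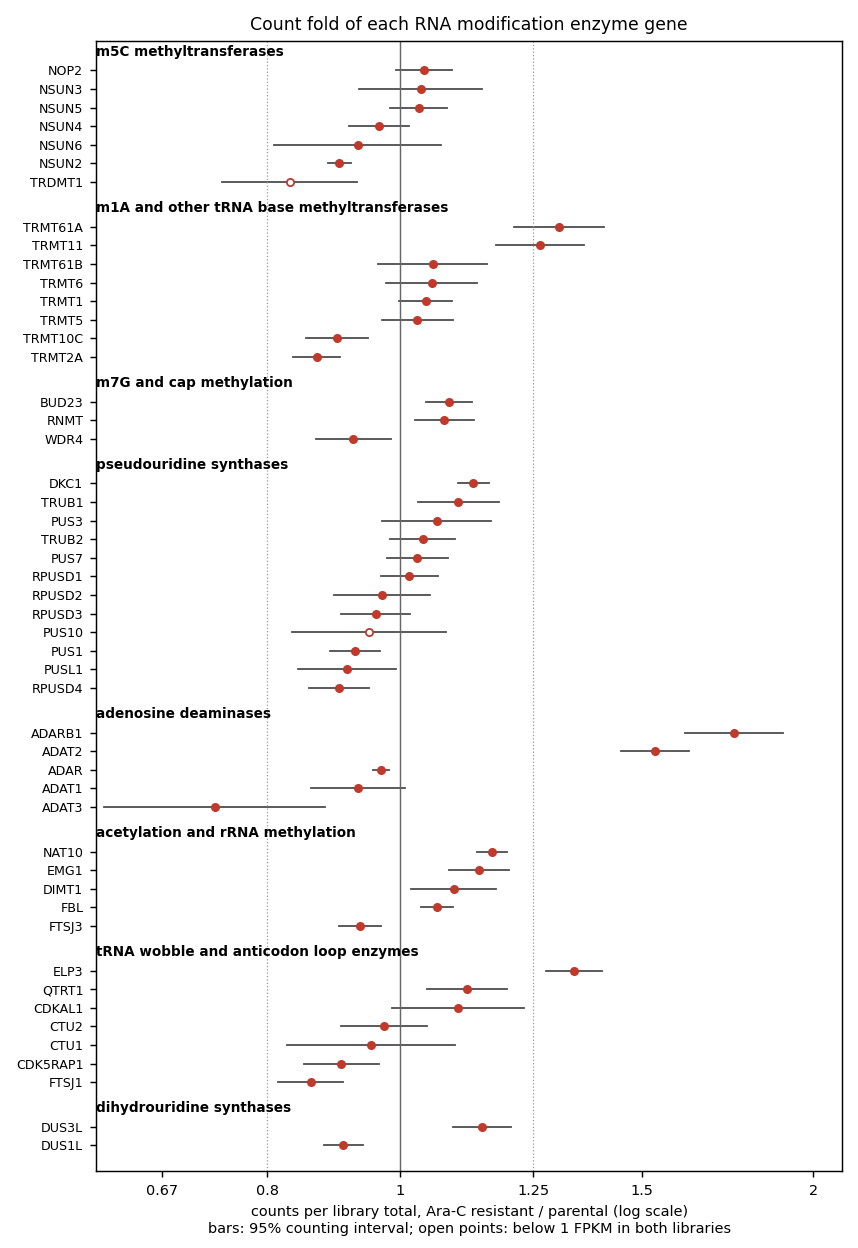
Count fold of each of the 49 genes (x axis, log scale, resistant over parental counts per library total), grouped by role; bars are 95% counting intervals and dotted lines mark 20% lower and 25% higher. ADARB1 and ADAT2 lie farthest to the right, and ADAT3, with 203 and 273 counts in resistant and parental cells, is farthest to the left.

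The adenosine deaminases held the widest spread. ADARB1 (ENSG00000197381, chr21:45073853-45226560, plus strand, GRCh38) encodes ADAR2, which edits sites in double-stranded RNA, some of them in coding sequence. It stood at 2.35 FPKM in the resistant library and 1.34 FPKM in the parental library, from 1606 and 904 counts. Its count fold was 1.75 (1.61 to 1.90) and its log2 ratio 0.52, the highest of the list. ADAT2 (ENSG00000189007, chr6:143422832-143450695, minus strand) is the catalytic subunit of the enzyme that makes inosine at the wobble base of tRNA. It stood at 6.30 FPKM in the resistant library and 4.12 FPKM in the parental library, a count fold of 1.53 (1.45 to 1.62) and a log2 ratio of 0.51. Its partner ADAT3 (ENSG00000213638, chr19:1905399-1913447, plus strand), the subunit that binds the tRNA without catalysing the reaction, was at 1.35 FPKM in the resistant library and 1.84 FPKM in the parental library. That count fold was 0.733 (0.608 to 0.882). The ratio of ADAT2 to ADAT3 in FPKM was thus 4.67 in resistant and 2.24 in parental cells. On counts the fold of that ratio was 2.09 (1.73 to 2.53), the largest shift of any enzyme and partner compared here. It rests on an ADAT3 value that is uncertain, as described below.

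The remaining deaminases stayed within the size rule on both scales. ADAR, which edits long double-stranded RNA and is the abundant member of the family, stood at 64.8 FPKM in the resistant library and 67.1 FPKM in the parental library. ADAT1, which deaminates the base beside the anticodon of an alanine tRNA, was at 4.07 FPKM in the resistant library and 4.38 FPKM in the parental library. Summed FPKM of the 5 deaminases was 78.9 in resistant and 78.8 in parental cells, most of it from ADAR.

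The lower level of ADAT3 was shared with an overlapping gene. SCAMP4, a secretory carrier membrane protein gene, overlaps ADAT3 on the same strand, and the RefSeq promoter window of both is one and the same sequence. SCAMP4 had 1659 counts in resistant and 2234 counts in parental cells, a count fold of 0.732 (0.686 to 0.780). The counting interval of the ADAT3 fold held that of SCAMP4. How the counting divided reads between the 2 genes was not given in the sources used here, so the ADAT3 value is uncertain.

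The promoter windows of ADARB1, ADAT2, ADAT3 and TRMT61A are shown because these had the largest log2 ratios, in either direction, of the genes with a window. ELP3 differed more than TRMT61A and ADAT3 but had no window. Each printed window runs from 250 bases before to 50 bases after the gene's start in RefSeq (GRCh38.p14), 5′ to 3′ on the gene's own strand. Capitals mark matches, on either strand, to the E-box CACGTG, the GC box GGGCGG and the ETS motif CCGGAAG. ADARB1 lies at chr21:45074328-45074627 on the plus strand, ADAT2 at chr6:143450646-143450945 on the minus strand, ADAT3 at chr19:1905149-1905448 on the plus strand and TRMT61A at chr14:103528946-103529245 on the plus strand.
ADARB1: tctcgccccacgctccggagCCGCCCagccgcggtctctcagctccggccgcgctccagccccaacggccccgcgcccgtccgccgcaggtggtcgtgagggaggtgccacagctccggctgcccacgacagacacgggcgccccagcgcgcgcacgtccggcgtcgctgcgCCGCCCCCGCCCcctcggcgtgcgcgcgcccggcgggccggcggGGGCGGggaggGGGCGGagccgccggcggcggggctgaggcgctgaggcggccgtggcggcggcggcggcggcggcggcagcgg
ADAT2: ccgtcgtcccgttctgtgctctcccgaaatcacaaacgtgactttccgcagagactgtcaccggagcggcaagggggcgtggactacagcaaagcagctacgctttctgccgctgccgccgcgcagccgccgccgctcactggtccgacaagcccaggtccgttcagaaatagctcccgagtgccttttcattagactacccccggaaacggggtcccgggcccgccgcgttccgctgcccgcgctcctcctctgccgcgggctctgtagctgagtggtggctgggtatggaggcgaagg
ADAT3: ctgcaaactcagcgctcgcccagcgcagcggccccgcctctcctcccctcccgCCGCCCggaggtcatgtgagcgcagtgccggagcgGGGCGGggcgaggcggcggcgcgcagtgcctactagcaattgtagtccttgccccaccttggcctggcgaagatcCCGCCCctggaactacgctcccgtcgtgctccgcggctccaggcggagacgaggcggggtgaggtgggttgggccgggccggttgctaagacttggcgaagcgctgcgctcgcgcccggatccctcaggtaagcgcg
TRMT61A: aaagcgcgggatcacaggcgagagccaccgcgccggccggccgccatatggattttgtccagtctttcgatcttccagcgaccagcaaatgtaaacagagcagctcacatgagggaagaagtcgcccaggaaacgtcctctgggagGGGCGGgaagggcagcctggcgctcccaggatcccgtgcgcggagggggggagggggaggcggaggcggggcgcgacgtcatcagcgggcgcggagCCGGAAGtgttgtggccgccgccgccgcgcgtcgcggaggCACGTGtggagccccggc

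These windows differed in content. The ADARB1 window held 84.3% G and C with 56 CpG dinucleotides and 5 GC boxes, ADAT3 had 72.0% with 3 GC boxes, and TRMT61A had 69.3% with 1 match to each of the 3 motifs. ADAT2 held none of the 3 motifs in its 300 bases. Windows were found for 43 of the 49 genes. The E-box occurred in 9 of the 43 (20.9%), against 7.26% of all 35116 windows and 9.63% of the 12389 windows of expressed genes. The ETS motif occurred in 14 (32.6%), against 10.3% of all windows and 19.0% of those of expressed genes, and the GC box in 27 (62.8%), against 45.0% and 67.2%. Each of the 3 motifs contains CG, and the 43 windows had a median of 24 CpG dinucleotides, against 14 over all windows. The CpG median of the windows of expressed genes, the closer background, was not computed. Each of the 43 genes gave 1 window, whereas the 12389 windows outnumber the 11388 expressed genes, so the sets were not built alike. A match is a run of letters and does not show that a factor binds.

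Among the enzymes that methylate tRNA bases, TRMT61A passed the size rule on both scales and TRMT11 on the count scale. TRMT61A (ENSG00000166166, chr14:103529196-103537073) is the catalytic subunit of the cytosolic m1A methyltransferase, and TRMT6 is the subunit that completes its tRNA binding. TRMT61A stood at 7.41 FPKM in the resistant library and 5.70 FPKM in the parental library, a count fold of 1.30 (1.21 to 1.41). TRMT6 was at 5.37 FPKM in the resistant library and 5.11 FPKM in the parental library. Catalytic subunit and partner were therefore not shifted equally: TRMT6 over TRMT61A was 0.725 in resistant and 0.896 in parental cells. TRMT11, which with TRMT112 makes m2G in the tRNA body, was at 4.24 FPKM in the resistant library and 3.36 FPKM in the parental library, with a count fold of 1.26 (1.18 to 1.36).

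The other tRNA methyltransferases stayed within the size rule on both scales. TRMT2A, which makes m5U, was at 17.5 FPKM in the resistant library and 20.1 FPKM in the parental library, a count fold of 0.869 (0.835 to 0.904). TRMT1, a dimethylguanosine enzyme, was at 17.3 FPKM in the resistant library and 16.7 FPKM in the parental library, and TRMT5, which makes m1G beside the anticodon, was at 6.05 FPKM in the resistant library and 5.89 FPKM in the parental library. The mitochondrial m1A enzyme TRMT61B was at 6.86 FPKM in the resistant library and 6.51 FPKM in the parental library. TRMT10C, a subunit of mitochondrial RNase P that methylates purines, was at 21.8 FPKM in the resistant library and 24.3 FPKM in the parental library. Of the 8 genes of this group, 6 (75%) had a log2 ratio above 0, against 46.3% of all expressed genes, with a median of 0.06.

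In the group that modifies the tRNA anticodon loop, ELP3 stood apart. ELP3 (ENSG00000134014) is the catalytic subunit of Elongator, which starts the side chain of wobble uridines. It was at 12.1 FPKM in the resistant library and 9.09 FPKM in the parental library, from 4255 and 3133 counts, a count fold of 1.34 (1.28 to 1.40). CTU1 and CTU2, which together thiolate the same uridine, were at 2.72 and 6.26 FPKM in resistant cells and at 2.87 and 6.45 FPKM in parental cells. The counting intervals of both thiolase subunits held 1, unlike that of ELP3. FTSJ1, a ribose methyltransferase of the anticodon loop, was at 12.8 FPKM in the resistant library and 14.9 FPKM in the parental library (count fold 0.860, 0.815 to 0.908). QTRT1, the catalytic subunit of the enzyme that inserts queuine, was at 7.97 FPKM in the resistant library and 7.15 FPKM in the parental library. CDK5RAP1 and CDKAL1 are methylthiotransferases that act next to the anticodon in mitochondrial and cytosolic tRNA. CDK5RAP1 was at 6.20 FPKM in the resistant library and 6.86 FPKM in the parental library, and CDKAL1 was at 2.17 FPKM in the resistant library and 1.98 FPKM in the parental library.

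The pseudouridine synthases formed the largest group, 12 genes of which 11 were expressed, and 0 of the 11 passed the size rule on either scale. DKC1 (ENSG00000130826, chrX:154762742-154777688), the catalytic subunit of the H/ACA particles that modify rRNA and that also stabilise telomerase RNA, stood at 43.4 FPKM in the resistant library and 38.5 FPKM in the parental library. Its count fold of 1.13 (1.10 to 1.16) was the highest of the group. RPUSD4, which acts on mitochondrial RNA, had the lowest count fold of the expressed synthases, 0.902 (0.859 to 0.948), at 10.95 FPKM in the resistant library and 12.2 FPKM in the parental library. PUS1, which modifies tRNA in nucleus and mitochondria, was at 11.4 FPKM in the resistant library and 12.3 FPKM in the parental library, and PUS7, which also modifies mRNA, was at 9.91 FPKM in the resistant library and 9.66 FPKM in the parental library.

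The TruB-type enzymes, which make the pseudouridine of the tRNA T arm or act in mitochondria, had log2 ratios between 0.04 and 0.12. TRUB1 was at 7.38 FPKM in the resistant library and 6.71 FPKM in the parental library, and TRUB2 at 6.94 FPKM in the resistant library and 6.70 FPKM in the parental library. PUS3, a tRNA enzyme of the anticodon arm, was at 7.05 FPKM in the resistant library and 6.66 FPKM in the parental library. PUSL1 was at 6.73 FPKM in the resistant library and 7.38 FPKM in the parental library. The remaining RPUSD genes showed no common direction: RPUSD1 was at 18.7 FPKM in the resistant library and 18.5 FPKM in the parental library. RPUSD2 was at 7.14 FPKM in the resistant library and 7.39 FPKM in the parental library, and RPUSD3, a mitochondrial enzyme, at 6.31 FPKM in the resistant library and 6.59 FPKM in the parental library. PUS10 did not reach the minimum, with 469 counts (0.90 FPKM) in resistant and 487 counts (0.95 FPKM) in parental cells.

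The enzymes of rRNA acetylation and methylation had 4 of 5 log2 ratios above 0, none of them past the size rule. That share was 80%, against 46.3% of all expressed genes. NAT10 (ENSG00000135372, chr11:34105617-34147670), the RNA cytidine acetyltransferase, was at 37.4 FPKM in the resistant library and 32.1 FPKM in the parental library, a count fold of 1.17 (1.14 to 1.20). EMG1, which methylates a hypermodified pseudouridine of the small-subunit rRNA, was at 7.80 FPKM in the resistant library and 6.86 FPKM in the parental library (count fold 1.14, 1.08 to 1.20). FBL, fibrillarin, the methyltransferase of C/D particles and the most abundant gene of the list in both libraries, was at 78.6 FPKM in the resistant library and 74.1 FPKM in the parental library. DIMT1, which dimethylates adenosines of the small subunit, was at 3.94 FPKM in the resistant library and 3.61 FPKM in the parental library. FTSJ3, a nucleolar protein with ribose methyltransferase activity, ran the other way, at 17.0 FPKM in the resistant library and 18.2 FPKM in the parental library.

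Of the m5C methyltransferases, NSUN2 showed a small, precisely counted difference. NSUN2 modifies several tRNAs and other RNAs. It was at 52.6 FPKM in the resistant library and 58.5 FPKM in the parental library, from 19652 and 21461 counts, a count fold of 0.902 (0.885 to 0.920). The enzymes of the large-subunit rRNA lay within the size rule, with NOP2 at 11.7 FPKM in the resistant library and 11.2 FPKM in the parental library and NSUN5 at 15.0 FPKM in the resistant library and 14.6 FPKM in the parental library. Of the mitochondrial enzymes, NSUN3 was at 1.26 FPKM in the resistant library and 1.22 FPKM in the parental library. NSUN4 was at 5.30 FPKM in the resistant library and 5.51 FPKM in the parental library. NSUN6, a tRNA enzyme, was at 1.65 FPKM in the resistant library and 1.80 FPKM in the parental library. A gene named by clone overlaps NSUN6 on the same strand, with 40 counts in resistant and 116 counts in parental cells, and with both summed the log2 ratio was -0.32 in place of -0.08, so the NSUN6 value is uncertain. TRDMT1, also named DNMT2, stayed under 1 FPKM, at 0.54 FPKM in the resistant library and 0.65 FPKM in the parental library (568 and 674 counts).

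For m7G, WDR4, the partner of METTL1 in the tRNA methyltransferase, was at 10.2 FPKM in the resistant library and 11.1 FPKM in the parental library. RNMT, which methylates the mRNA cap, was at 6.91 FPKM in the resistant library and 6.43 FPKM in the parental library, and BUD23, which methylates small-subunit rRNA, at 10.1 FPKM in the resistant library and 9.33 FPKM in the parental library. The dihydrouridine synthases, which reduce uridine in tRNA, differed in sign, both within the size rule. DUS3L was at 14.4 FPKM in the resistant library and 12.6 FPKM in the parental library (count fold 1.15, 1.09 to 1.20), and DUS1L was at 17.0 FPKM in the resistant library and 18.8 FPKM in the parental library (0.908, 0.879 to 0.939).

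**Figure D3:**
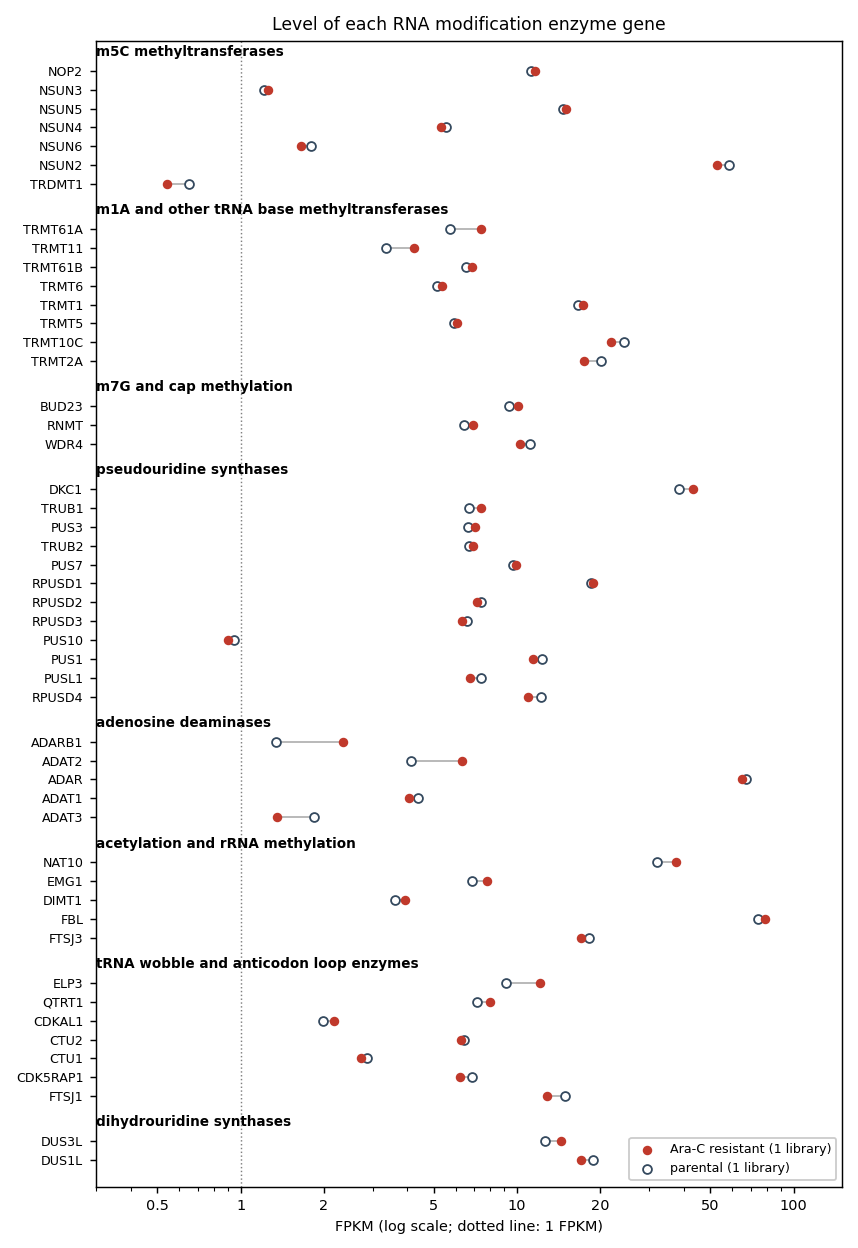
FPKM (x axis, log scale) of each of the 49 genes by role, in the order of the count folds; filled points are the resistant library and open points the parental library, 1 library each. Levels ran between 0.54 and 78.6 FPKM in resistant cells, and FBL, ADAR, NSUN2, DKC1 and NAT10 held the 5 highest places in both libraries.

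The enzymes were also grouped by where they act. Of 9 nucleolar enzymes (NOP2, NSUN5, DKC1, NAT10, FBL, FTSJ3, EMG1, DIMT1 and BUD23), 8 (88.9%) had a log2 ratio above 0, against 46.3% of all expressed genes, FTSJ3 being the exception, with a median of 0.10 and none past the size rule. Of 8 mitochondrial enzymes (NSUN3, NSUN4, TRMT61B, TRMT10C, RPUSD3, RPUSD4, TRUB2 and CDK5RAP1), 3 (37.5%) were above 0, against the same 46.3%, and the median was -0.05. PUS1 (log2 ratio -0.10), which acts in nucleus and mitochondria, and PUSL1 (-0.12) were placed in neither group. Of 9 mitochondrial genes in the wider list described below, 3 (33.3%) were above 0, with a median of -0.11. The grouping of the enzymes was chosen after the values were seen and was not tested.

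Several of these enzymes work with a partner, and the ratio of enzyme to partner in FPKM was compared between libraries with a 95% interval of the count ratio (Woolf's method, counting error alone). After the wobble deaminase, the largest shift of a ratio was in Elongator. ELP3 over ELP6 was 1.71 in resistant and 1.03 in parental cells, a fold of 1.66 (1.53 to 1.80), and ELP3 over ELP5 was 1.61 in resistant and 1.03 in parental cells. ELP6 and ELP5, subunits of the accessory ring, were at 7.12 and 7.52 FPKM in resistant cells and at 8.85 and 8.81 FPKM in parental cells. Another Elongator subunit, ELP4, lay under 1 FPKM in both libraries and went the other way, with a count fold of 1.19 (1.10 to 1.28). ELP3 over ELP4 was 15.6 in resistant and 13.8 in parental cells, a fold of 1.13 (1.03 to 1.23). ELP2, a scaffold subunit, was at 6.34 FPKM in resistant cells and 5.14 FPKM in parental cells, shifted in the direction of ELP3, and ELP3 over ELP2 was 1.91 in resistant and 1.77 in parental cells.

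Among the H/ACA genes listed, the largest difference was that of NOP10, the smallest core protein of the particle. NOP10 was at 75.0 FPKM in the resistant library and 96.4 FPKM in the parental library, a count fold of 0.780 (0.740 to 0.821), the only H/ACA partner past the size rule. GAR1 stood at 19.6 FPKM in the resistant library and 19.3 FPKM in the parental library, and NHP2 at 49.8 FPKM in the resistant library and 50.7 FPKM in the parental library. DKC1 over NOP10 was therefore 0.579 in resistant and 0.399 in parental cells. In the C/D particle FBL and its 3 partners all had log2 ratios above 0, against 46.3% of all expressed genes. NOP58 was at 45.6 FPKM in the resistant library and 39.9 FPKM in the parental library. SNU13 was at 44.8 FPKM in the resistant library and 38.5 FPKM in the parental library, and NOP56 at 31.5 FPKM in the resistant library and 30.7 FPKM in the parental library. These partners were not shifted equally with FBL. FBL over NOP58 had a fold of 0.928 (0.893 to 0.965) and FBL over SNU13 0.913 (0.877 to 0.951). The interval of FBL over NOP56 held 1 (fold 1.03, 0.995 to 1.07).

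Among the other pairs, 4 described next had an interval of the shift that held 1. NAT10 over its tRNA adaptor THUMPD1 was 4.39 in resistant and 4.50 in parental cells, a fold of 0.976 (0.925 to 1.03). FTSJ1 over WDR6, its partner at the wobble base, was 0.841 in resistant and 0.827 in parental cells (fold 1.02, 0.952 to 1.08). CTU1 over CTU2 was 0.435 in resistant and 0.445 in parental cells (fold 0.978, 0.837 to 1.14), and TRMT10C over HSD17B10 had a fold of 0.985 (0.918 to 1.06). The interval left out 1 for the following pairs. WDR4 over METTL1, the m7G methyltransferase, was 1.28 in resistant and 1.64 in parental cells (fold 0.779, 0.698 to 0.868), with METTL1 at 8.02 FPKM in the resistant library and 6.77 FPKM in the parental library. QTRT1 over QTRT2 was 0.997 in resistant and 0.853 in parental cells (fold 1.17, 1.08 to 1.26). RNMT over its activator RAMAC was 0.697 in resistant and 0.781 in parental cells (fold 0.891, 0.804 to 0.988). TRMT112, a partner shared by BUD23 and TRMT11, was in excess of both, at 29.3 FPKM in the resistant library and 33.0 FPKM in the parental library. BUD23 over TRMT112 was 0.345 in resistant and 0.283 in parental cells (fold 1.22, 1.14 to 1.31). TRMT11 over TRMT112 was 0.145 in resistant and 0.102 in parental cells (fold 1.42, 1.29 to 1.56).

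**Figure D4:**
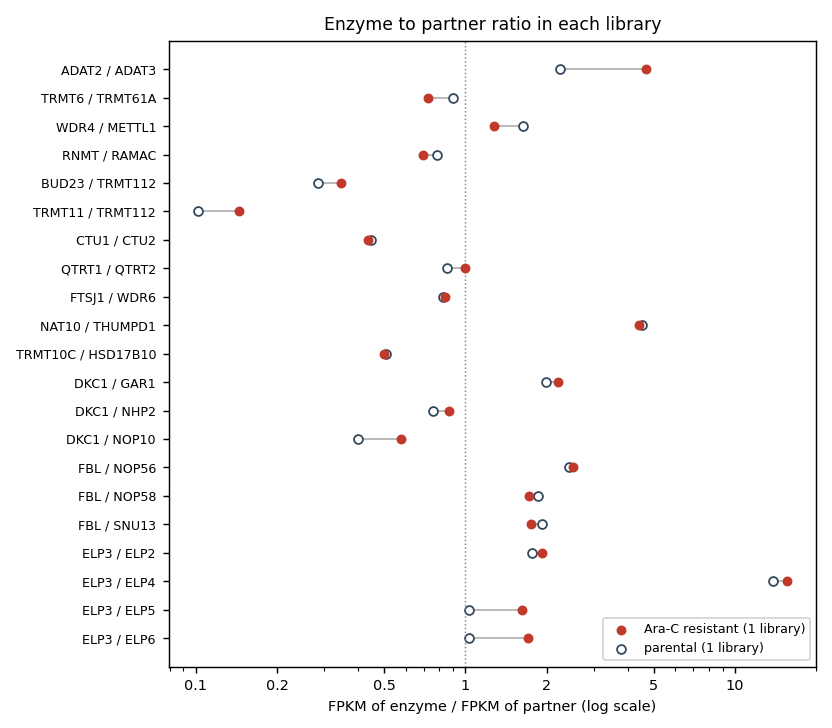
FPKM of an enzyme over FPKM of its partner (x axis, log scale) for 21 pairs; filled points are the resistant library and open points the parental library, 1 library each. The widest gap is that of ADAT2 over ADAT3 (4.67 in resistant, 2.24 in parental cells), followed by ELP3 over ELP6. The ADAT3 value is uncertain because of the overlap with SCAMP4.

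A wider list of 68 partner and RNA modification genes held 4 genes past the size rule on the FPKM + 1 scale. Of these, 67 had a row and 65 were expressed, with 2 at least 25% higher in resistant cells, against a background of 9.66%, 2 at least 20% lower, against 13.0%, and a median log2 ratio of 0.04; the remaining gene, NSUN7, was not analysed here. The higher genes were RNGTT, the mRNA capping enzyme (13.0 FPKM in resistant, 9.18 FPKM in parental cells), and TPRKB (14.3 FPKM in resistant, 10.6 FPKM in parental cells). The lower genes were NOP10 and GON7 (8.29 FPKM in resistant, 11.9 FPKM in parental cells). On the count scale 5 genes were at least 25% higher, against a background of 13.3%, TRMO, DUS2 and TFB1M joining the higher genes. On that scale 5 were at least 20% lower, against 17.2%, LCMT2, MTO1 and TRMT44 joining the lower genes. TPRKB and GON7 are both subunits of the KEOPS complex, which makes the threonylcarbamoyl base beside the anticodon, and they differed in opposite directions. The catalytic subunit of KEOPS, OSGEP, had a log2 ratio between theirs, at 9.19 FPKM in the resistant library and 8.30 FPKM in the parental library. Below 1 FPKM was ELP4, at 0.78 FPKM in the resistant library and 0.66 FPKM in the parental library. ADARB2, the brain gene of the ADAR family, had 0 counts in either library. For a count of 0, the 95% upper limit on the expected count is about 3.

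ADAT2 and TRMT11 lie on chromosome 6, where long stretches of genes differed together. On chromosome 6 the expressed genes were parted at the widest stretch without an expressed gene, a choice made after the values were seen. The 239 genes beyond it, between 69672757 and 170584692 (GRCh38), had a median log2 ratio of 0.13, and 164 (68.6%) were above 0. The 323 genes before it had a median of -0.18, and 79 (24.5%) were above 0. Over all expressed genes the share above 0 was 46.3%. ADAT2 and TRMT11 lie on the higher side, as do RNGTT and TFB1M, a mitochondrial rRNA methyltransferase (4.09 FPKM in resistant, 3.18 FPKM in parental cells). ADAT2 was 0.38 and TRMT11 0.13 above the median of that side. The 20 nearest expressed genes had a median of 0.20 around ADAT2 and 0.16 around TRMT11. The part of this regional shift in their differences was not tested. MTO1, a mitochondrial tRNA enzyme on the same side, was 0.42 below that median, and CDKAL1, on the lower side, was 0.27 above the median of its own.

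**Figure D5:**
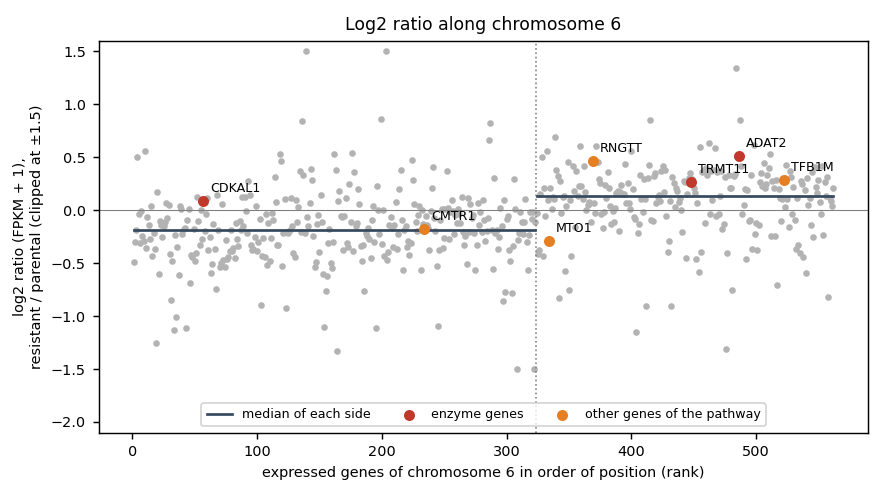
Log2 ratio (y axis, FPKM + 1 scale, clipped at ±1.5) of the 562 expressed genes of chromosome 6 by rank of position (x axis); the dotted line is the widest stretch without an expressed gene and the dark lines are the medians of the sides. ADAT2 and TRMT11 stand above the right-hand median of 0.13, and CDKAL1 above the left-hand median of -0.18.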

How the data were processed

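The table of 30856 gene rows gave coordinates, FPKM and whole-number counts. The submitters' processing notes name StringTie 1.3.4d, HISAT2 2.0.4 and cutadapt 1.9, as well as edgeR and DESeq2, on the GRCh38 build, without roles. Not given in the sources used here were annotation release, strand setting and treatment of multi-mapped reads. Libraries were stranded (dUTP), per the labels' protocols. FPKM was deposited by the authors, scaled to transcript length and library size, and the counts were deposited unscaled. The resistant count column has a suffix with no explanation in the labels. Over 10810 genes its log2 ratios differed from those of FPKM by a near-constant (SD 0.0035), so it was taken as the same library. The design assumed FPKM; counts served depth and count folds. No count model was run, because 1 library per group leaves no spread to estimate, and the labels do not say whether the libraries came from separate cultures.

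Rows named by clone were left out (22880 rows kept), as were genes under 1 FPKM in both libraries (11388 kept). Count folds carry Clopper-Pearson intervals of the share of counts that fell in the resistant library, turned into a fold. Every enzyme is named, and the 12 with the largest log2 ratios have intervals; of the wider list, genes past the size rule are named, and 1 partner gene counted in that list is not reported here. Compartments, partner pairs, promoter motifs, the chromosome 6 split and other genes were chosen after values were seen. The members and lists were chosen with earlier results of these data known. Alternatives covered pseudocount, filter, centring, scaling and overlapping genes. Steps were tested on simulated data, with matplotlib 3.10.9, scipy 1.17.1, pandas 2.3.3, numpy 2.4.6 and Python 3.11.15.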

Additional observations from a re-analysis of the deposited data

How the results depend on the processing

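The alternatives changed the pseudocount, the filter on low values, the centring, the measure and the unit counted. The median log2 ratio of the expressed enzyme genes stayed between 0.02 and 0.07, and 0 of the 47 changed sign in any of the 8 alternatives that could be run for it (7 for the 9 genes that a minimum of 5 FPKM leaves out). With a pseudocount of 5 FPKM, 0 enzyme genes were at least 25% higher, against 3.40% of all genes; with a minimum of 5 FPKM, 3 of 38 were, against 8.60%. With a pseudocount of 0.1 FPKM, with CPM, with median-of-ratios scaling and with counts summed over overlapping genes of the same strand, 5 enzyme genes (TRMT11 being the fifth) were at least 25% higher, 1 (ADAT3) was at least 20% lower and 2 (ADARB1 and ADAT2) were at least 1.5-fold apart. Over all genes the shares under the first 3 of these settings were 12.9% to 14.4%, 16.1% to 17.2% and 13.1% to 13.8%; by construction these measures shrink low genes less. In the wider list, 5 genes were at least 25% higher with 0.1 FPKM, 1 with 5 FPKM, 5 with CPM, 6 with median-of-ratios scaling and 5 with summed counts. At least 20% lower were 4 with 0.1 FPKM, 5 with CPM and 5 with summed counts. No paired analysis was possible because each group had 1 library, and no replicate could be left out. Depth limited precision most for ADAT3, CTU1 and NSUN6, whose intervals were wide; small differences have no measure of the spread between cultures.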

Other observations

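Beyond chromosome 6, most of the largest differences stood apart from the nearest genes on the chromosome. The log2 ratio of ADARB1 was 0.52, while its 20 nearest expressed genes had a median of -0.05. For ELP3 the values were 0.38 and -0.10, for TRMT61A 0.33 and 0.02, and for NAT10 0.21 and -0.03. ADAT3 (-0.27) lay among genes with a median of -0.14, and 3 of its 20 neighbours were above 0. TRUB1 (0.12) lay among genes with a median of 0.15. These are descriptions of the 2 libraries.

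Some enzyme genes overlap a gene on the opposite strand that differed more than they did. DNAJC30, which overlaps BUD23, had 504 counts in resistant and 352 in parental cells, a count fold of 1.41 (1.23 to 1.62), against 1.09 for BUD23. LPCAT3, which overlaps EMG1, had 1011 counts in resistant and 784 in parental cells, a fold of 1.27 (1.16 to 1.40), against 1.14 for EMG1. The strand setting of the counting was not given, and the part of such reads in the enzyme values was not tested.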
